A study of Arabidopsis thaliana with 12 samples.

Results

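CSLA01 (AT4G16590), GH9B8 (AT2G32990) and GH9B16 (AT4G38990) are 3 Arabidopsis genes with predicted roles in the cell wall, 1 of the mannan synthase family and 2 of the glycosyl hydrolase family 9. They were found as the probes whose platform annotation gives exactly 1 gene, that gene being one of the 3, and each matched 1 probe, so that 3 of the 692 probes with a single gene, and of 3439 probes in all, are described. They were picked with their difference between the groups already known, so that difference is given here as a description, with no test. The bromoxynil group held 6 arrays of plants treated with 500 µM bromoxynil, a herbicide of the nitrile class whose target is photosystem II. The water group held 6 arrays of plants given water in its place. All plants were wild type of the Landsberg ecotype and had been back in the light for 30 min after a dark period of 12 h. The labels give neither the age of the plants nor the organ that was sampled, and do not say that the arrays of a group came from separate plants, so the spread between arrays may be technical.

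Mannans are hemicelluloses with a backbone of linked mannose units that bind to cellulose in the wall and can serve as a store of carbohydrate. In plants the backbone is made in the Golgi apparatus from GDP-mannose by glycosyltransferases of the cellulose synthase-like A (CSLA) family. Glycosyl hydrolase family 9 (GH9) holds the plant endoglucanases, which cut glucan chains within their length. In this family the A class is anchored in membranes and includes KORRIGAN, which is needed for cellulose synthesis, the B class has a catalytic domain and a secretion signal, and the C class carries in addition a module that binds cellulose. Loosening and rebuilding of the wall accompany growth, for which light and sugar supply are both known to matter. None of the 3 proteins is known as part of the photosynthetic apparatus.

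The values are relative intensities, set by the depositors so that the brightest feature is 100 on each array. For comparison they were taken as log2, after zeros had been given the lowest positive value of their array, and quantile-normalised, which gives all arrays the same distribution. Before normalisation the median log2 intensity was higher by 0.46 on the bromoxynil arrays. None of the 3 genes was listed at 0 on any array. The GH9B8 probe ranked at the 15.1st percentile of all probes by mean brightness, within the dimmest 25%, CSLA01 at the 25.5th, just above that limit, and GH9B16 at the 57.0th.

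CSLA01, the only CSLA gene of 9 listed with a probe of its own, was lower on every bromoxynil array than on every water array. Its deposited intensity was 0.186, 0.184, 0.289, 0.233, 0.335 and 0.290 on bromoxynil arrays 1 to 6, against 0.406, 0.374, 0.382, 0.428, 0.463 and 0.531 on water arrays 1 to 6. Arrays 1 and 2 were the lowest with bromoxynil and arrays 5 and 6 the highest with water, and the highest bromoxynil array stayed below the lowest water array. The mean was 0.253 ± 0.0616 with bromoxynil and 0.431 ± 0.0587 with water (SD, n = 6 each). On the normalised log2 scale the difference was -1.14 ± 0.15 (SE), a level 2.20-fold lower with bromoxynil. In these bulk samples fewer cells that hold a transcript and less of it per cell cannot be told apart.

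GH9B8, an endoglucanase of the B class, was lower with bromoxynil by a similar size, but its water arrays were spread more widely. The deposited intensity was 0.128, 0.159, 0.163, 0.158, 0.203 and 0.208 on bromoxynil arrays 1 to 6, against 0.360, 0.230, 0.362, 0.180, 0.368 and 0.400 on water arrays 1 to 6. Water array 4 lay among the bromoxynil arrays and water array 2 just above them, so the groups overlapped. The normalised log2 mean was -2.65 ± 0.21 with bromoxynil and -1.54 ± 0.57 with water (SD, n = 6 each). The difference was -1.11 ± 0.25 (SE), which is 2.17-fold lower. Leaving out 1 array at a time, it ranged from -1.31 without water array 4 to -1.02 without water array 6.

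GH9B16, also of the B class, was lower with bromoxynil too, with a smaller difference on the normalised log2 scale than CSLA01 or GH9B8. Its deposited intensity was 0.556, 0.553, 0.434, 0.581, 0.478 and 0.530 on bromoxynil arrays 1 to 6, against 0.648, 0.686, 0.692, 0.684, 0.788 and 0.788 on water arrays 1 to 6. The groups did not overlap, with bromoxynil array 4 the nearest to the water arrays and water array 1 the nearest to the bromoxynil arrays. The mean was 0.522 ± 0.0553 with bromoxynil and 0.714 ± 0.0593 with water (SD, n = 6 each). The normalised log2 difference was -0.88 ± 0.08 (SE), or 1.84-fold lower with bromoxynil.

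**Figure D1:**
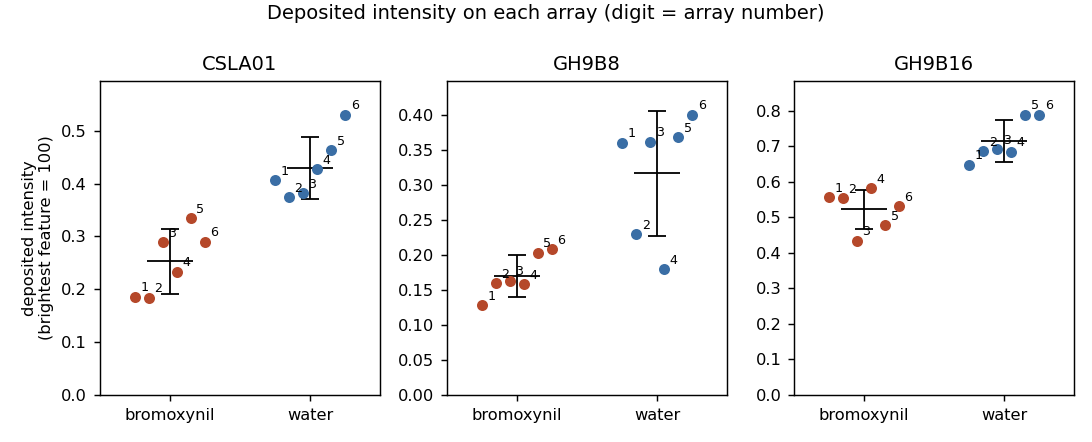
Deposited intensity (y axis, brightest feature of the array = 100) of CSLA01, GH9B8 and GH9B16 on the 6 bromoxynil and 6 water arrays. Points are arrays with their number, and the black bar and whiskers are the mean and SD. The groups are apart for CSLA01 and GH9B16, while water array 4 lies within the bromoxynil range for GH9B8.

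Arrays carry a number from 1 to 6 in either group, and the bromoxynil array was the lower one for each of the 3 genes in all 6 same-number pairs. For CSLA01 and GH9B16, whose groups did not overlap, any pairing of the arrays would give this. The genes were also chosen on the difference between the groups, so nothing is read from the direction. For CSLA01 the normalised log2 difference within a pair ranged from -1.46 for number 1 to -0.73 for number 3. For GH9B8 it ranged from -1.71 for number 1 to -0.26 for number 4, the widest range of the 3 genes. For GH9B16 it ranged from -1.11 for number 5 to -0.65 for number 4. The pair that differed most was thus not the same for all 3 genes.

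The direction was the same under the other scalings below, while the size was not. Since the genes were chosen on this difference, the shared direction is no support for it. On the deposited values, without normalisation, the log2 differences were -0.79 for CSLA01, -0.86 for GH9B8 and -0.46 for GH9B16, and after median centring of the arrays they were -1.26, -1.32 and -0.92 for the genes in that order.

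The median log2 difference of the 3 genes was -1.11, beside -0.04 over all 3439 probes. A difference as low as that of CSLA01 or lower was seen for 10.3% of probes, for GH9B8 for 10.8% and for GH9B16 for 17.6%. The groups did not overlap, with all bromoxynil arrays below all water arrays, for 2 of the 3 genes and for 20.8% of all probes. Nothing is read from these figures, since the genes were chosen on this difference.

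The log2 difference of a probe moved with its place in a repeat of the probe numbers, and all 3 genes lie in places where most probes were lower with bromoxynil. Among the 150 other probes within 6 places of CSLA01 the median difference was -0.66, and 77.3% of them were lower with bromoxynil. Around GH9B8 the median over 159 probes was -0.61, and 84.3% were lower. Around GH9B16 it was -0.53 over 158 probes, with 80.4% lower. Each of the 3 genes differed by more than the median of its neighbourhood, though 37 neighbours of CSLA01, 33 of GH9B8 and 47 of GH9B16 were lower still.

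After each array was adjusted for place, the log2 differences were -0.65 ± 0.13 for CSLA01, -0.53 ± 0.22 for GH9B8 and -0.33 ± 0.08 for GH9B16 (SE, n = 6 each). These are 1.57-fold, 1.45-fold and 1.25-fold lower with bromoxynil. The adjusted values of CSLA01 still did not overlap, at -1.73 to -1.12 with bromoxynil and -0.96 to -0.42 with water. For GH9B16 they did not overlap either but nearly met, at -0.24 to 0.09 with bromoxynil and 0.10 to 0.49 with water. Those of GH9B8 overlapped, at -2.01 to -1.57 with bromoxynil and -2.06 to -0.80 with water.

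**Figure D2:**
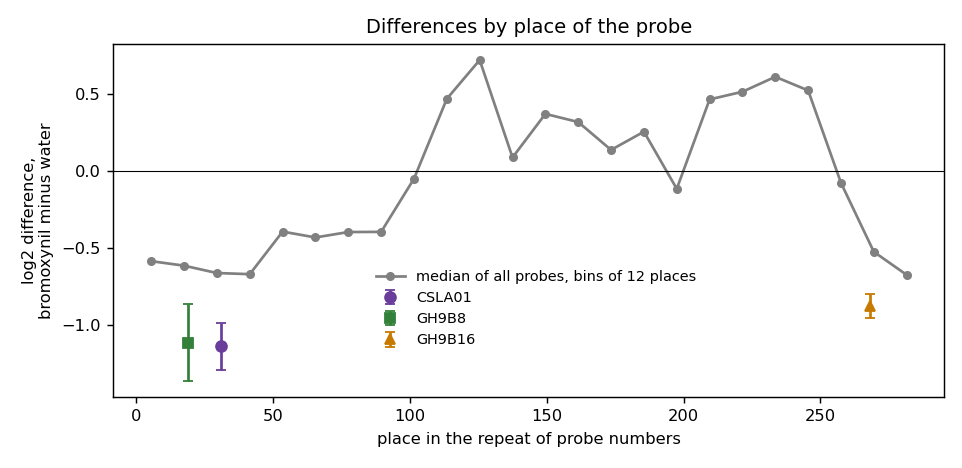
Log2 difference, bromoxynil minus water (y axis), against the place of a probe in the repeat of probe numbers (x axis). The grey line gives the median of all probes in bins of 12 places, and the symbols give CSLA01, GH9B8 and GH9B16 with their SE. The 3 genes lie below the line, in a part of the repeat where it is below 0.

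**Figure D3:**
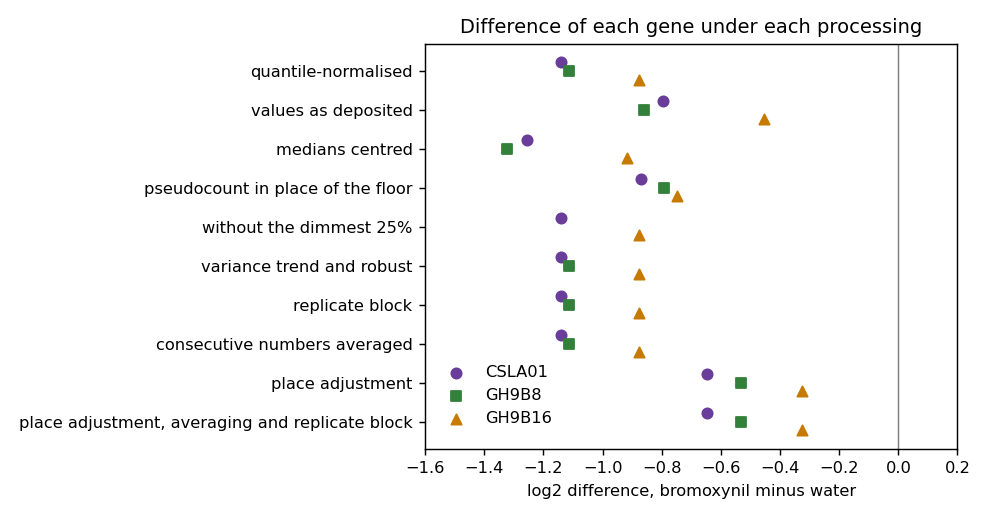
Log2 difference, bromoxynil minus water (x axis), of CSLA01, GH9B8 and GH9B16 under each processing (y axis). All values are below 0 and are nearest to it after the place adjustment, at -0.65, -0.53 and -0.33. GH9B8 has no value without the dimmest 25% of probes, which removes it.

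Few other cell wall genes could be set beside these. Of 337 genes of cell wall synthesis and remodelling, chosen by family or by keyword, 5 had a probe of their own, the 3 genes above and a pair of GH9 genes of the B class. No cellulose synthase, xyloglucan endotransglucosylase or expansin on the lists had one, and neither did any of the 14 other genes of mannan and GDP-mannose metabolism. Of the pair, 1 fell and 1 did not pass the test, where 29.9% of all probes and 25.7% of the 692 with a single gene were called lower in the same fit. GH9B11 (AT2G44560) fell, with a log2 difference of -0.85 ± 0.16 (SE) and an adjusted p of 0.000608 (limma). Its deposited intensity was 0.384 to 0.723 with bromoxynil, median 0.518, against 0.628 to 0.927 with water, median 0.680. The deposited ranges overlapped, the normalised ones did not, and after the place adjustment the difference was -0.32 and no longer passed.

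GH9B12 (AT2G44570), whose locus number follows that of GH9B11, had a log2 difference of 0.01 ± 0.35 (SE, adjusted p = 0.990, limma). Its deposited intensity was 0.392, 0.368, 0.247, 0.207, 0.164 and 0.215 on bromoxynil arrays 1 to 6, against 0.323, 0.299, 0.214, 0.221, 0.101 and 0.177 on water arrays 1 to 6. In both groups arrays 1 and 2 were the highest and array 5 the lowest, and this spread within a group was wider than the difference between the groups. The probe is among the dimmest 25%.

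A further 9 probes are annotated with several genes that are all on the cell wall lists, and no gene can be named from them. This set was formed after values had been seen. Of the 9, 6 were lower and 0 higher with bromoxynil at an adjusted p under 0.05 (limma), and 5 were lower and 1 higher both after the place adjustment and on the values as deposited. Among the 6 of these probes that carry only GH9 genes, 4 were lower, and 3 after the place adjustment. The probe no longer lower, 1478, went from a log2 difference of -0.53 ± 0.17 (SE) to 0.12 ± 0.17. Its mean deposited intensity was 0.465 with bromoxynil and 0.491 with water. The share of all probes that were lower was 29.9% before and 25.5% after it. Of all 3439 probes, 844 were higher before the adjustment and 753 after it. On the values as deposited, 1941 were called in either direction.

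Probe 3160 lists GH9B16 together with other GH9 genes. Its deposited intensity was 0.290 to 0.548 with bromoxynil, median 0.337, against 0.769 to 0.973 with water, median 0.865, without overlap. The log2 difference was -1.62 ± 0.15 (SE), and -1.08 after the place adjustment, against -0.88 and -0.33 for the probe that names GH9B16 alone. Which transcripts each of these probes binds was not tested.

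Probes 2019 and 2884 list the same pair of GH9 genes and gave unlike values. Probe 2019 was at 0.0426 to 0.169 with bromoxynil, median 0.125, against 0.316 to 0.455 with water, median 0.348. Its log2 difference was -2.04 ± 0.28 (SE), and -1.33 after the place adjustment. Probe 2884 was at 0.147 to 0.513 with bromoxynil, median 0.442, against 0.0722 to 0.586 with water, median 0.445, and its log2 difference was -0.20 ± 0.53, and 0.42 after the place adjustment. Probe 2884 stood far below the rest of its group on array 1 in both groups, at log2 -2.74 with bromoxynil and -3.65 with water. Its differences and wide SE rest in part on that array number. Thus 1 probe of the pair was apart between the groups and the other was not, and whether both measure the annotated genes was not tested. Among probes of several cellulose synthase-like C genes, a family that makes the glucan backbone of xyloglucan, probe 4030 was lower, with a log2 difference of -1.33 ± 0.13, and -0.70 after the place adjustment. Probe 1130 had 0.08 ± 0.17, and 0.57 ± 0.15 after it. It was the 1 probe of the 9 called higher after the place adjustment.

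**Figure D4:**
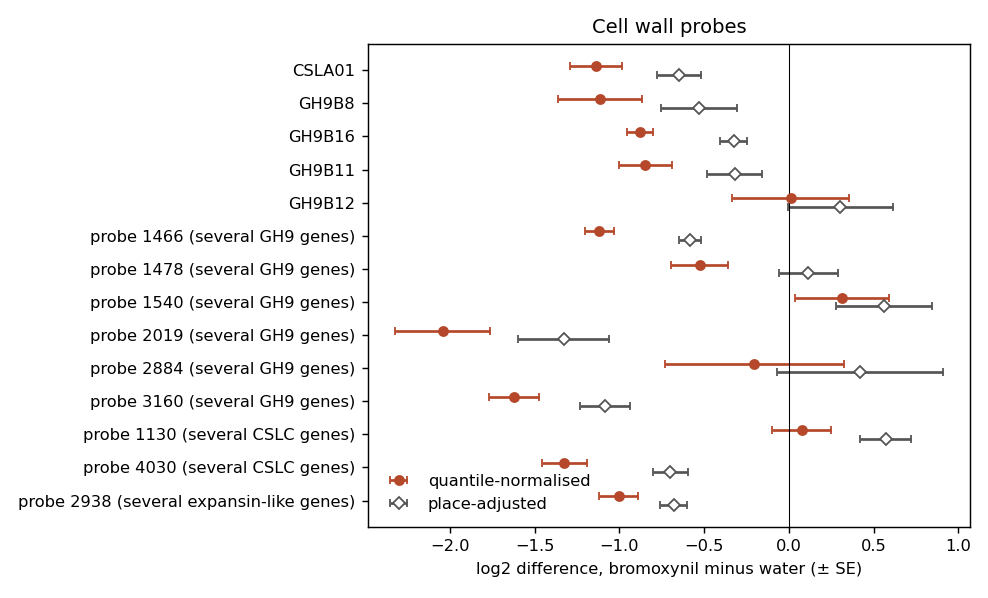
Log2 difference, bromoxynil minus water, with its SE (x axis) for the 5 probes that name 1 cell wall gene and the 9 that list several (y axis). Filled circles are quantile-normalised values and open diamonds are values adjusted for place. The adjustment moves each probe to the right, and GH9B12 and probes 1130, 1540 and 2884 are near or above 0 in both.

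Across all 12 arrays the normalised values of the 3 genes correlated with each other, at a Pearson r of 0.854 between CSLA01 and GH9B8, 0.882 between CSLA01 and GH9B16 and 0.838 between GH9B8 and GH9B16. These values hold the difference between the groups on which the genes were picked. With each group's mean removed, r was 0.448 between CSLA01 and GH9B8, -0.07 between CSLA01 and GH9B16 and 0.323 between GH9B8 and GH9B16. The 12 arrays are shared by all pairs, and the places of CSLA01 and GH9B8 are 12 apart.

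The genes most like each of the 3 over the 12 arrays were taken from 496 probes with a single gene above the dimmest 25%. CSLA01 was followed most closely by LpxA (AT4G29540, r = 0.970), an acyltransferase of the lipid A type, by AT1G21660 (r = 0.969) and by AT4G31470 (r = 0.967). Their log2 differences were -2.04, -1.51 and -1.45, all lower than that of CSLA01, and their places were 8, 14 and 8 from it. For GH9B16 the closest were AT1G02020 (r = 0.980), AT2G46910 (r = 0.974) and PRK (AT1G32060, r = 0.967), the phosphoribulokinase of the Calvin cycle. These had log2 differences of -1.38, -0.85 and -1.62, and their places were 3, 41 and 3 from that of GH9B16. GH9B8 had looser company, with AT2G38550 (r = 0.902), AT2G48130 (r = 0.896) and AT2G25870 (r = 0.881), whose log2 differences were -0.62, -1.04 and -0.61 and whose places were 106, 58 and 116 away. An r of at least 0.9 was reached by 36 probes for CSLA01, 42 for GH9B16 and 1 for GH9B8. These correlations, given as descriptions, share the arrays and the difference between the groups, and neighbouring places moved alike. With each group's mean removed, r was 0.751 to 0.801 for the genes named beside CSLA01. It was 0.656 to 0.704 for those of GH9B16 and 0.650 to 0.686 for those of GH9B8. All were picked for a high r over these same arrays.

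The tissue could be checked only through green-tissue genes, of which 6 of 16 listed had a probe of their own. None was at 0 on any array, and their brightness ranked from the 51.9th to the 99.6th percentile of all probes. No root or seed marker on the lists had such a probe. Summed over the 6 genes, the deposited intensity was 29.4 to 38.8 with bromoxynil and 38.2 to 48.5 with water. With bromoxynil 3 of the 6 fell and 1 rose (limma, adjusted p under 0.05), where 29.9% of all probes fell and 24.5% rose. Their part in the differences of the cell wall genes was not tested.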

How the data were processed

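Total RNA was measured on 12 arrays, 6 with bromoxynil and 6 with water. The deposited values are intensities on a linear scale, and scanning, background subtraction and averaging of spots are not given in the sources used here. Precision is limited by how many arrays there are, and 3.14% to 4.57% of values on an array are 0. Values were taken as log2, with zeros at the array's lowest positive value, and quantile-normalised. Every probe was fitted with limma 3.58.1 (lmFit, eBayes, two-sided, Benjamini-Hochberg over 3439 probes, threshold 0.05) in R 4.3.3. SEs are unmoderated. The fit was also run on simulated arrays drawn independently, with and without a smooth trend over places. The deviations that arrays of the same number share here were not simulated, so that run does not check the fit for them.

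Gene names come from the platform annotation in GEO, updated through the TAIR10.1 gene table, which matched 690 of 692 probes; its coordinates were not used and names were not checked against probe sequences. For the place adjustment, the median of probes within 6 places in the repeat of probe numbers, then of each of 12 columns, was subtracted per array; the repeat was found in the water arrays. Arrays that share a number between groups deviate from their group means alike (r = 0.450 to 0.530 over probes above the dimmest 25%). Arrays of different numbers were not compared in this way, so pairing by number is not shown, and the labels do not say what the numbers share. The main fit, with its SEs and p-values, takes no account of the numbers, and a replicate block was run as an alternative. Named genes were the 3 genes, measured genes of the cell wall list, and the 3 most correlated probes of each; the probes with several genes were added after values were seen. The genes and lists were chosen with earlier results of these data known. Alternatives were no normalisation, median centring, a pseudocount of 0.1, a dim filter, a variance trend, a replicate block, averaged numbers, place adjustment and leaving out each array. Plots were made in Python 3.11.15 (matplotlib 3.10.9).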

Additional observations from a re-analysis of the deposited data

Results flagged for a closer look

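A single array stood far from its group in 4 of 46 gene-by-group sets of 6 arrays, where about 5% would do so by chance. On the normalised log2 scale, probe 2884, which lists several GH9 genes, was at -2.74 on bromoxynil array 1, against -1.69 to -1.14 on the other bromoxynil arrays. On water array 1 it was at -3.65, against -1.35 to -0.54 on the other water arrays. AT2G38550, one of the genes most like GH9B8, was at -1.35 on bromoxynil array 1, against -0.93 to -0.78. AT1G02020, the gene most like GH9B16, was at -1.67 on bromoxynil array 3, against -1.34 to -1.15. No array of CSLA01, GH9B8, GH9B16, GH9B11 or GH9B12 stood apart in this way.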

How the results depend on the processing

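CSLA01 and GH9B16 were lower with bromoxynil in all 21 alternatives run and GH9B8 in all 20, from -1.26 to -0.65, -0.92 to -0.33 and -1.32 to -0.53 on the log2 scale. These counts are no support, since the genes were chosen on this difference. The dim filter, variance trend, replicate block and averaged numbers cannot move the estimate of a probe that is kept. Leaving out 1 array cannot change the sign for CSLA01 and GH9B16, whose groups did not overlap. The differences moved by more than 1 SD between arrays on the deposited values for CSLA01 (-0.79) and GH9B16 (-0.46), with the pseudocount for CSLA01 (-0.87), and with the place adjustment, alone or with averaging and replicate block, for CSLA01 (-0.65), GH9B8 (-0.53) and GH9B16 (-0.33). Leaving out 1 array gave -1.22 to -1.07 for CSLA01, -1.31 to -1.02 for GH9B8 and -0.90 to -0.83 for GH9B16. Over all probes 1872 were called, 1230 with consecutive numbers averaged, 948 with place adjustment, averaging and block, 2055 with the replicate block alone and 1754 to 1891 without 1 array. Of GH9B11 and GH9B12, 1 was called in the other alternatives and in each fit without 1 array, 0 after the place adjustment with or without averaging and block (GH9B11 at -0.32 in both), and 7 probes when those with several genes, added after seeing the data, were counted. The replicate block alone changed the call of neither GH9B11 nor GH9B12. GH9B12, never called, was at 0.28 on the deposited values, 0.30 with the place adjustment, -0.18 with medians centred, -0.010 with the pseudocount, and between -0.23 and 0.16 without 1 array, below 0 in 5 of 12 such fits. The 9 genes most like the 3 kept their sign in all 189 fits. They were picked for following the 3 genes, and several of the fits repeat the same estimate, so nothing is read from this. The causes of these shifts were not tested. A background measure was not used, so how far the dim GH9B8 and GH9B12 probes lie above background is not known.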
